A study of Mus musculus with 62 samples.

Results

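The tibialis anterior, a fast muscle at the front of the lower hind limb, was compared between female mice injected 8 weeks earlier with melanoma cells that cause cachexia (CAC, 7 libraries) and mice injected with melanoma cells that do not (NCAC, 5 libraries). These 12 libraries were taken by their labels from the 62 in the series, and every gene in the table was considered. Mock-injected mice of the same 8 weeks (Con, 5 libraries) and the 10 CAC and NCAC libraries of 6 weeks were used only where they are named. All animals were labelled as 2 months old. The series' design text names NCI Ath/nude mice, which lack a thymus and therefore T cells, whereas the strain label of every sample reads C57BL6/J. The extraction protocol shared by the labels also speaks of muscle taken 3 weeks after LLC injection, a model that none of these 12 libraries is labelled with. The labels do not name the melanoma lines, so cachexia cannot be told apart from any other property in which the tumours of the CAC and NCAC mice differ. Each library was labelled as a biological replicate, and no label ties libraries to litters, cages or extraction days.

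Cachexia is the loss of muscle and fat that accompanies many tumours. Cytokines of the interleukin-6 family bind receptors that share the subunit gp130, activate Janus kinases and the transcription factor STAT3, and so raise Socs3, a feedback inhibitor of the same receptors. Glucocorticoids and low insulin signalling act on muscle through the glucocorticoid receptor and FOXO factors, which raise genes that slow protein synthesis and the ubiquitin ligases Trim63 (MuRF1) and Fbxo32 (atrogin-1), the classical markers of muscle wasting. Setting a cachectic against a non-cachectic melanoma asks what differs in the muscle beyond the presence of a tumour.

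Transcript abundance was deposited as TPM, a length-normalised share of all transcripts that sums to 1000000 in every library and carries no read depth, so the counting error of a value is unknown. In the CAC libraries 37.7 ± 2.43% of TPM came from mitochondrially encoded genes, against 47.4 ± 1.96% in the NCAC libraries and 48.8 ± 7.07% in the Con libraries (SD; n = 7, 5 and 5). The CAC and NCAC ranges, 34.7 to 41.5% and 44.1 to 49.2%, did not overlap, and the difference of -9.74 percentage points had an exact two-sided permutation p of 0.00126, the smallest that the 792 possible splits allow. Because TPM is a share, a smaller mitochondrial share goes with a larger summed share of all other genes. Shares do not tell which of these RNAs changed in amount. The comparison of CAC with NCAC muscles at 8 weeks is therefore given both as deposited and after rescaling by the median of ratios, whose factors were 1.20 to 1.46 in CAC and 0.885 to 0.974 in NCAC libraries. The CAC libraries were also less alike. The SD over CAC libraries exceeded that over NCAC libraries for 79.3% of genes, and on the first principal component, which held 55.3% of the variance, CAC replicates 1 and 6 lay farthest out (57.3 and 52.2) while CAC replicate 3 lay at -18.3, next to the NCAC libraries (-35.5 to -20.1). CAC replicate 3 also held the most haemoglobin RNA, with 3252 TPM of Hba-a1 against 46.6 to 462.3 TPM in the other CAC libraries. Myofibre markers summed to 63800 to 112000 TPM in CAC libraries and 96800 to 115000 TPM in NCAC libraries, so both groups held muscle RNA as labelled.

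The comparison was broad. Of 47643 genes in the table, 11318 had a mean of at least 1 TPM over the 12 libraries and were tested with limma on log2(TPM + 1). Every change below is CAC minus NCAC on that scale with its standard error, which understates the change of genes near 1 TPM, and a gene is called, or said to have risen or fallen, at a Benjamini-Hochberg adjusted p under 0.05. As deposited, 7237 genes (63.9%) were called higher in CAC muscles and 404 (3.57%) lower, with a median change over all genes of 0.44. After rescaling, 1848 (16.3%) were called higher and 1800 (15.9%) lower, with a median of 0.027. All 1848 and all 404 were also called in the same direction under the other scaling, while 68 genes called higher as deposited were called lower after rescaling. Among the genes called under both scalings, 277 were higher by at least 1 log2 unit under both and 75 lower. The CAC and NCAC libraries did not overlap at all for 818 of the 1848 higher genes and 124 of the 404 lower genes under both scalings. Over all tested genes the groups did not overlap in 40.3% (higher) and 1.1% (lower) as deposited and in 7.4% and 7.99% after rescaling.

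**Figure D1:**
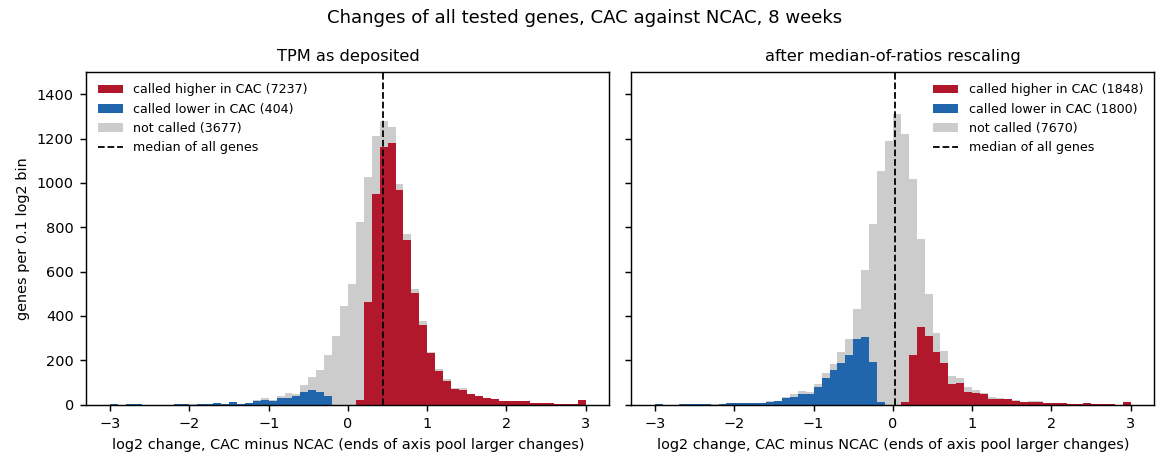
Histograms of the log2 change (CAC minus NCAC, x axis) of the 11318 tested genes, in bins of 0.1 (y axis, genes per bin), for TPM as deposited (left) and after median-of-ratios rescaling (right); red and blue mark genes called higher and lower. As deposited the whole distribution sits to the right, with a median of 0.44 and 7237 genes called higher, while after rescaling its median is 0.027 and the calls divide into 1848 higher and 1800 lower.

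Transcripts on the list from interleukin-6 family receptors to STAT3 were mostly higher in CAC muscles. Proteins and STAT3 activity were not measured. Of 22 tested members of this list, 18 were called higher and 0 lower as deposited, and 13 higher and 0 lower after rescaling. Over all tested genes the shares called higher and lower were 63.9% and 3.57% as deposited and 16.3% and 15.9% after rescaling, and the counts of every list below stand against the same shares. In any list, a gene that passed the filter only through its CAC level had to differ. The members' median change was 1.24 as deposited and 0.80 after rescaling, against 0.44 and 0.027 over all genes. Among the receptors, Osmr, the oncostatin M receptor, averaged 9.68 ± 2.34 TPM in CAC muscles and 1.26 ± 0.213 TPM in NCAC muscles (SD; n = 7 and 5, as for every mean below; a gene given by means alone was called under both scalings), with changes of 2.21 ± 0.16 as deposited (limma adjusted p = 4.24e-06) and 1.81 ± 0.14 after rescaling (adjusted p = 1.53e-05). Il6st, which encodes gp130, averaged 65.7 ± 16.5 TPM in CAC muscles and 30.2 ± 2.804 TPM in NCAC muscles. The change was 1.07 as deposited and 0.58 after rescaling. Il6ra, the interleukin-6 receptor itself, was between 0.798 and 56.3 TPM in the 7 CAC libraries (median 12.7), against 1.06, 0.967, 1.31, 1.37 and 1.99 TPM in the 5 NCAC libraries. Here 2 CAC libraries, replicates 1 and 6, held 56.3 and 55.3 TPM and CAC replicate 3, at 0.798 TPM, lay below every NCAC library. Its changes were 2.58 ± 0.70 as deposited (limma adjusted p = 0.00662) and 2.18 ± 0.65 after rescaling (adjusted p = 0.0236), and the rescaled call was lost without NCAC replicate 1 or 2 (adjusted p = 0.0512 and 0.0551).

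Socs3, the feedback inhibitor of gp130 signalling, was among the 12 largest increases and did not overlap between the groups. It lay between 32.4 and 80.8 TPM in the 7 CAC libraries (median 65.99), against 1.21, 1.35, 1.07, 1.596 and 2.64 TPM in the 5 NCAC libraries. Every CAC library lay above the highest NCAC library, and the Con mean was 2.13 ± 0.595 TPM in mock-injected mice. The changes were 4.50 ± 0.23 as deposited (limma adjusted p = 6.26e-07) and 4.06 ± 0.24 after rescaling (adjusted p = 3.07e-06). Stat3 itself lay between 31.3 and 73.3 TPM in the 7 CAC libraries (median 45.96), against 10.6, 8.98, 11.2, 12.5 and 10.04 TPM in the 5 NCAC libraries. The groups did not overlap, and the changes were 2.05 ± 0.17 as deposited (limma adjusted p = 1.01e-05) and 1.58 ± 0.14 after rescaling (adjusted p = 2.95e-05). Jak3, a Janus kinase best known from receptors other than gp130, averaged 13.9 ± 3.19 TPM in CAC muscles and 2.93 ± 0.861 TPM in NCAC muscles. Bcl3, a nuclear partner of NF-kB, averaged 5.403 ± 1.57 TPM in CAC muscles and 0.702 ± 0.154 TPM in NCAC muscles. Junb and Cebpd, transcription factors that respond early to cytokines, were higher in CAC by 3.04 as deposited and 2.58 after rescaling and by 3.56 as deposited and 3.09 after rescaling. Cebpd was much more variable than Socs3, between 28.1 and 486 TPM in the 7 CAC libraries (median 103), against 9.67, 2.92, 18.1, 10.5 and 5.53 TPM in the 5 NCAC libraries.

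The Socs3 gene lies on the minus strand of chromosome 11 (chr11:117966079-117970047, GRCm38). Its promoter is shown because Socs3 is the textbook STAT3 target of this group, and STAT factors bind the palindrome TTCNNNGAA. RefSeq's window of 250 bases before to 50 after the start (chr11:117969317-117969616, minus strand, GRCm38.p6), printed 5′ to 3′ with the match in capitals, held 1 match, with both strands searched. RefSeq places this start inside the gene span given above, which is GENCODE's, so the window is not upstream of GENCODE's outermost start. Of all 32851 promoter windows of this length, 8.3% held at least 1 match. A match describes letters in the sequence and was not tested as a binding site.
Socs3: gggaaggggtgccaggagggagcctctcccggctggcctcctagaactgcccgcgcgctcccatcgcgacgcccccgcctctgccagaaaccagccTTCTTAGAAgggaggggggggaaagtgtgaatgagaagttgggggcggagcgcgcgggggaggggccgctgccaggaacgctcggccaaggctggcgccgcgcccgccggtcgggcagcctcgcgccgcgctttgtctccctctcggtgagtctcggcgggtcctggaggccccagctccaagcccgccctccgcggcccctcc

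Acute-phase proteins, which the liver secretes in inflammation and which other tissues can also express, were all higher. All 11 members that passed the filter were called higher under both scalings, with a median change of 2.23 as deposited and 1.92 after rescaling. The other 12 of the 23 genes on this list stayed under a mean of 1 TPM, and a gene that passes only through its CAC level had to differ, so the count is a description. Hepatocyte markers summed to 0.0537 to 6.72 TPM in CAC libraries and 0.0191 to 57.0 TPM in NCAC libraries. Serpina3n, a serine protease inhibitor, lay between 11.5 and 677 TPM in the 7 CAC libraries (median 129.5), against 1.72, 1.57, 2.23, 2.46 and 1.44 TPM in the 5 NCAC libraries. No library overlapped, although the CAC values spanned a wide range. The changes were 5.52 ± 0.71 as deposited (limma adjusted p = 7.41e-05) and 5.07 ± 0.69 after rescaling (adjusted p = 0.000341). Lcn2, an iron-scavenging lipocalin, lay between 0.999 and 130.3 TPM in the 7 CAC libraries (median 48.1), against 0.2001, 0.523, 0.426, 0.192 and 0.246 TPM in the 5 NCAC libraries. Its lowest CAC value, that of replicate 3, was far below the next, at 30.7 TPM. Hp, the haemoglobin-binding haptoglobin, averaged 58.4 ± 31.3 TPM in CAC muscles and 1.19 ± 0.402 TPM in NCAC muscles. Lbp, which binds bacterial lipopolysaccharide, averaged 22.5 ± 9.01 TPM in CAC muscles and 2.21 ± 0.425 TPM in NCAC muscles. Haptoglobin changed by 4.37 ± 0.62 as deposited (limma adjusted p = 0.000129) and 3.94 ± 0.60 after rescaling (adjusted p = 0.000675).

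Complement, the cascade of plasma proteins that opsonises cells and microbes, was mostly higher too. Of 20 tested genes, 18 were called higher and 0 lower as deposited, and 15 higher and 1 lower after rescaling. Their median change was 1.84 as deposited and 1.38 after rescaling. C3, the central component, lay between 25.2 and 106 TPM in the 7 CAC libraries (median 86.7), against 4.91, 5.55, 6.64, 14.3 and 9.34 TPM in the 5 NCAC libraries. CAC replicate 3 was the lowest of its group but still above the highest NCAC library. Its changes were 3.09 ± 0.34 as deposited (limma adjusted p = 3.07e-05) and 2.62 ± 0.32 after rescaling (adjusted p = 0.000214). C4b, which acts upstream of C3, averaged 25.4 ± 9.25 TPM in CAC muscles and 1.04 ± 0.353 TPM in NCAC muscles. Serping1, the inhibitor of the first component, averaged 109.9 ± 24.1 TPM in CAC muscles and 24.9 ± 5.62 TPM in NCAC muscles. C1qb, a subunit of the first component that macrophages make, averaged 25.8 ± 11.1 TPM in CAC muscles and 4.51 ± 2.399 TPM in NCAC muscles. Macrophage markers were mostly higher as well. Of 11 macrophage markers 9 passed the filter, and all 9 were called higher as deposited and 7 after rescaling. A marker that passes only through its CAC level had to differ, so this count is a description. The markers' summed level was 105 to 283 TPM in CAC libraries, against 29.1 to 58.0 TPM in NCAC libraries, with none of the 11 markers at 0 in every library. C1qb and its partner C1qa are on both lists, and the part of macrophages in the complement result was not tested. In bulk tissue, more cells of a type and more RNA per cell cannot be told apart.

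Receptors for other cytokines were mostly higher. Of 27 genes on the list of cytokine receptors and NF-kB, 24 were called higher and 0 lower as deposited, and 16 higher and 1 lower after rescaling. On this list the median change was 0.82 as deposited and 0.44 after rescaling. Csf2rb, the shared beta chain of the receptors for interleukin-3, interleukin-5 and GM-CSF, lay between 11.5 and 22.5 TPM in the 7 CAC libraries (median 18.96), against 1.37, 1.03, 1.66, 0.796 and 1.15 TPM in the 5 NCAC libraries. Its changes were 3.07 ± 0.18 as deposited (limma adjusted p = 6.26e-07) and 2.65 ± 0.18 after rescaling (adjusted p = 5.54e-06), with no overlap between the groups. The neighbouring mouse copy Csf2rb2 is similar in sequence, so how reads were divided between them is uncertain, and it averaged 15.3 ± 3.57 TPM in CAC muscles and 1.11 ± 0.262 TPM in NCAC muscles. Il1r1, the interleukin-1 receptor, averaged 7.13 ± 0.933 TPM in CAC muscles and 1.605 ± 0.2304 TPM in NCAC muscles. Tnfrsf1a, the main tumour necrosis factor receptor, averaged 44.6 ± 9.59 TPM in CAC muscles and 13.4 ± 1.503 TPM in NCAC muscles. The changes of these 2 genes were 1.64 as deposited and 1.24 after rescaling for Il1r1 and 1.64 as deposited and 1.17 after rescaling for Tnfrsf1a. Il4ra, shared by the receptors for interleukin-4 and interleukin-13, changed by 2.11 as deposited and 1.69 after rescaling. Ccl8, a chemokine for monocytes, was among the 12 largest increases and averaged 16.6 ± 7.38 TPM in CAC muscles and 0.613 ± 0.643 TPM in NCAC muscles. Tmem252, a membrane protein of poorly known function, was there too and averaged 18.6 ± 9.75 TPM in CAC muscles and 0.455 ± 0.195 TPM in NCAC muscles.

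**Figure D2:**
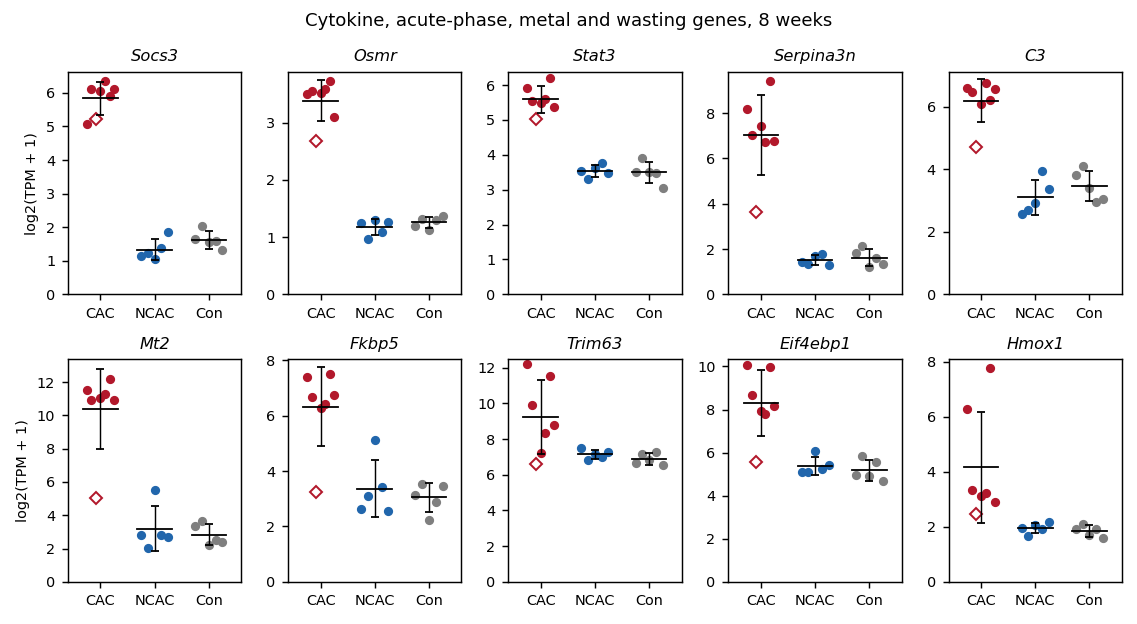
Values of log2(TPM + 1) (y axis) in each 8-week library of CAC (red), NCAC (blue) and Con (grey) mice for 10 genes; lines and bars are the mean and SD, and the open diamond is CAC replicate 3. Socs3, Osmr, Stat3, Serpina3n, C3 and Hmox1 separated CAC from NCAC in all 7 libraries, while CAC replicate 3 lay within the NCAC range for Mt2, Fkbp5 and Eif4ebp1 and below it for Trim63.

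Mt2 led the 12 largest increases. It encodes a metallothionein, 1 of a family of small proteins that bind zinc and copper and whose genes respond to metals, glucocorticoids and STAT3. Mt2 lay between 32.3 and 4596 TPM in the 7 CAC libraries (median 2082), against 6.06, 3.14, 45.7, 5.92 and 5.48 TPM in the 5 NCAC libraries. Of the CAC libraries 6 held at least 1925 TPM, and replicate 3 held 32.3 TPM, below the 45.7 TPM of NCAC replicate 3, so the groups overlapped in these 2 libraries. The changes were 7.24 ± 1.06 as deposited (limma adjusted p = 0.000157) and 6.76 ± 1.05 after rescaling (adjusted p = 0.000723), and without CAC replicate 3 they were 8.13 as deposited and 7.64 after rescaling (limma adjusted p = 5.44e-07 and 1.72e-06). Mt1 behaved alike, between 64.6 and 5057 TPM in the 7 CAC libraries (median 1973), against 20.9, 23.7, 90.2, 24.3 and 27.2 TPM in the 5 NCAC libraries, and the same 2 libraries overlapped. Its changes were 5.52 ± 0.87 as deposited (limma adjusted p = 0.00024) and 5.03 ± 0.85 after rescaling (adjusted p = 0.0012). Among zinc transporters, the importer Slc39a14 (ZIP14) lay between 3.76 and 122 TPM in the 7 CAC libraries (median 12.2), against 2.32, 2.26, 2.39, 2.19 and 2.48 TPM in the 5 NCAC libraries, and CAC replicates 1 and 6 were the 2 highest. It changed by 2.55 ± 0.69 as deposited (limma adjusted p = 0.00603) and 2.12 ± 0.64 after rescaling (adjusted p = 0.025); the rescaled adjusted p was above the threshold without NCAC replicate 1, 2 or 4. The exporter Slc30a1, itself a metal-responsive gene, averaged 10.2 ± 2.99 TPM in CAC muscles and 4.34 ± 0.626 TPM in NCAC muscles. The change was 1.04 as deposited and 0.61 after rescaling. Over the 20 tested genes of the list, 16 were called higher and 0 lower as deposited, and 6 higher and 2 lower after rescaling. The median change was 0.56 as deposited and 0.17 after rescaling. On this list the largest changes were those of Mt2, Mt1 and Slc39a14.

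Mt2 and Mt1 lie side by side on chromosome 8 (chr8:94172664-94173568 and chr8:94179082-94180327, plus strand, GRCm38). Their promoters are shown for the metal response element, the site of the zinc-sensing factor MTF1, whose core is TGCRCNC (R is A or G). The looser pattern TGCNCNC was searched on both strands and is in capitals. Some matches, such as TGCTCTC in Mt2, therefore fall outside the core, and none was tested as a binding site. RefSeq's windows from 250 bases before to 50 after the start (chr8:94172368-94172667 and chr8:94178839-94179138, GRCm38.p6) held 6 matches in Mt2 and 3 in Mt1; here too RefSeq and GENCODE place the starts at slightly different bases. Of all windows of this length 51% held at least 1 match, 7.1% held 3 or more and 0.225% held 6 or more.
Mt2: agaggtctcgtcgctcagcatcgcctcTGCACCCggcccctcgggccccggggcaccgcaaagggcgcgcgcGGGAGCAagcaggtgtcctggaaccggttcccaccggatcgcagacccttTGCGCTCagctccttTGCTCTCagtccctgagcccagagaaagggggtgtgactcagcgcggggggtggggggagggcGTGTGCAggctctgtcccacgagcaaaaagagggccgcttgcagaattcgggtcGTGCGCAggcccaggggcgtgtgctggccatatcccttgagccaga
Mt1: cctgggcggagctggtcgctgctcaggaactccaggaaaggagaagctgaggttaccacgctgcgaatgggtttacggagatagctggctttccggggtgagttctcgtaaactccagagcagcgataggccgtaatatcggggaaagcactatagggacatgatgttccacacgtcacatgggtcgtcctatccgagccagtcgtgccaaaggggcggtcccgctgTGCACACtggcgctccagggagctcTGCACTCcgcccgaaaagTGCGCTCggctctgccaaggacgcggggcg
Neither window held the STAT palindrome TTCNNNGAA, and the Socs3 window held 1 match to TGCNCNC.

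Genes that glucocorticoids induce were higher as a group. Of 25 tested, 19 were called higher and 0 lower as deposited, and 14 higher and 0 lower after rescaling. Their median change was 1.48 as deposited and 0.999 after rescaling. Mt2, Lcn2 and Cebpd are on this list as well. Fkbp5, a co-chaperone that the glucocorticoid receptor strongly induces, lay between 8.46 and 179 TPM in the 7 CAC libraries (median 100.4), against 5.27, 7.54, 33.7, 9.81 and 4.88 TPM in the 5 NCAC libraries. Replicate 3 of CAC, at 8.46 TPM, was the exception in its group, and NCAC replicate 3 was the highest of the NCAC libraries. The changes were 2.95 ± 0.67 as deposited (limma adjusted p = 0.00222) and 2.48 ± 0.65 after rescaling (adjusted p = 0.0124), and without CAC replicate 3 3.47 as deposited and 2.98 after rescaling (limma adjusted p = 4.85e-05 and 0.00026). Nfil3, a repressor in the clock and in immune cells, averaged 80.5 ± 33.4 TPM in CAC muscles and 10.1 ± 3.895 TPM in NCAC muscles. Glul, glutamine synthetase, averaged 428 ± 221 TPM in CAC muscles and 82.9 ± 26.03 TPM in NCAC muscles. Sult1a1, a sulfotransferase, averaged 77.3 ± 28.5 TPM in CAC muscles and 18.6 ± 5.08 TPM in NCAC muscles. Pdk4, which blocks pyruvate oxidation and is a common fasting marker, was not called, at 1307 ± 1522 TPM in CAC muscles and 541 ± 199 TPM in NCAC muscles. Its changes were 0.42 ± 0.74 as deposited (limma adjusted p = 0.626) and -0.07 ± 0.71 after rescaling (adjusted p = 0.948).

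Of 19 brakes on mTORC1 and translation, 3 were called higher after rescaling, close to the share of 16.3% over all tested genes. Ddit4 (REDD1), a stress-induced inhibitor of mTORC1, lay between 36.9 and 742 TPM in the 7 CAC libraries (median 167), against 15.9, 4.52, 27.7, 16.8 and 9.13 TPM in the 5 NCAC libraries. The 7 CAC libraries were all above the NCAC range, with replicate 3 the lowest. Its changes were 3.44 ± 0.68 as deposited (limma adjusted p = 0.000946) and 2.97 ± 0.65 after rescaling (adjusted p = 0.00491). Eif4ebp1, which holds back cap-dependent translation, lay between 46.6 and 1066 TPM in the 7 CAC libraries (median 283), against 33.4, 33.5, 66.03, 36.2 and 42.03 TPM in the 5 NCAC libraries, with only CAC replicate 3 inside the NCAC range, and changed by 2.92 ± 0.62 as deposited (limma adjusted p = 0.00156) and 2.43 ± 0.59 after rescaling (adjusted p = 0.00866). Its relative Eif4ebp2 averaged 123 ± 30.01 TPM in CAC muscles and 60.1 ± 4.53 TPM in NCAC muscles. Over the 19 genes of the list, 14 were called higher and 0 lower as deposited, and 3 higher and 2 lower after rescaling; without NCAC replicate 2 the first count was 9. In the pathway from insulin receptor to FOXO, 16 were called higher and 1 lower as deposited, and 8 higher and 4 lower after rescaling, of 27 genes, and the rescaled count of higher genes was 3 without NCAC replicate 2 or 4 and 5 without CAC replicate 2. Foxo1, a transcription factor that drives wasting genes, averaged 24.6 ± 15.5 TPM in CAC muscles and 4.21 ± 0.573 TPM in NCAC muscles. Its changes were 2.03 ± 0.41 as deposited (limma adjusted p = 0.00111) and 1.58 ± 0.38 after rescaling (adjusted p = 0.0082). Igfbp4, which sequesters insulin-like growth factors, averaged 41.8 ± 10.5 TPM in CAC muscles and 9.28 ± 1.57 TPM in NCAC muscles. Igf1r, their receptor, averaged 8.39 ± 4.699 TPM in CAC muscles and 2.597 ± 0.375 TPM in NCAC muscles. Its rescaled call was lost without NCAC replicate 2 or 4 (adjusted p = 0.0548 and 0.0572). Grb14, an inhibitor of the insulin receptor, fell to 3.22 ± 1.23 TPM in CAC muscles, against 10.2 ± 3.26 TPM in NCAC muscles. The change was -1.41 ± 0.23 as deposited (limma adjusted p = 0.000304) and -1.78 ± 0.25 after rescaling (adjusted p = 0.000412). Cdkn1a (p21), an arrest gene of p53 and glucocorticoids, averaged 67.3 ± 53.3 TPM in CAC muscles and 18.6 ± 23.2 TPM in NCAC muscles. It was called as deposited only, at 1.90 ± 0.67 as deposited (limma adjusted p = 0.0235) and 1.43 ± 0.65 after rescaling (adjusted p = 0.106). That call was lost without NCAC replicate 1, 4 or 5, and a rescaled call was made without CAC replicate 3 or NCAC replicate 3 (adjusted p of 0.0257 and 0.0237 from limma).

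The classical ubiquitin ligases of wasting overlapped between the groups. Trim63 (MuRF1), which tags myosin for breakdown, lay between 96.995 and 4657 TPM in the 7 CAC libraries (median 446), against 181, 114, 141, 128 and 155 TPM in the 5 NCAC libraries. CAC replicates 1, 6 and 2 held 4657, 2919 and 977 TPM, replicate 4 lay inside the NCAC range and replicate 3 below it. Its changes were 2.07 ± 0.84 as deposited (limma adjusted p = 0.0431) and 1.58 ± 0.81 after rescaling (adjusted p = 0.148), so it was called as deposited only. Without CAC replicate 3 the changes were 2.51 as deposited and 2.01 after rescaling (limma adjusted p = 0.0109 and 0.0441), and without CAC replicates 1 and 6, a choice made after seeing the data, they were 1.03 as deposited and 0.59 after rescaling (limma adjusted p = 0.089 and 0.386). The deposited call was also lost when any 1 of the 5 NCAC libraries or of CAC replicates 1, 2, 6 and 7 was left out, with limma adjusted p of 0.0523 to 0.0825. Fbxo32 (atrogin-1) lay between 29.2 and 1436 TPM in the 7 CAC libraries (median 187), against 119.7, 51.4, 82.4, 62.9 and 84.4 TPM in the 5 NCAC libraries and was not called, at 1.57 ± 0.81 as deposited (limma adjusted p = 0.103) and 1.08 ± 0.78 after rescaling (adjusted p = 0.299). Without CAC replicate 3 its changes were 2.06 as deposited and 1.56 after rescaling (limma adjusted p = 0.0169 and 0.0717). Fbxo31, a related ligase subunit, averaged 184 ± 127 TPM in CAC muscles and 43.6 ± 4.04 TPM in NCAC muscles. It was called under both scalings, at 1.77 ± 0.41 as deposited (limma adjusted p = 0.00244) and 1.28 ± 0.37 after rescaling (adjusted p = 0.0201); it was the 1 gene of 28 on the ligase list called higher after rescaling. On that list 14 were called higher and 0 lower as deposited, and 1 higher and 4 lower after rescaling, and without CAC replicate 3 the rescaled counts were 3 higher and 6 lower.

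Proteasome and lysosome genes were mostly higher as deposited, and few were called after rescaling. Of 31 proteasome subunits, 25 were called higher and 0 lower as deposited, and 0 higher and 0 lower after rescaling, while after rescaling 2 were called higher without CAC replicate 3 and 4 lower without CAC replicate 1. Their median change was 0.58 as deposited and 0.094 after rescaling, against 0.44 and 0.027 over all genes. Psma7 and Psmd4, 2 of these subunits, averaged 108 ± 68.3 TPM in CAC muscles and 45.02 ± 2.83 TPM in NCAC muscles for the first and 154 ± 90.96 TPM in CAC muscles and 65.1 ± 8.26 TPM in NCAC muscles for the second, with rescaled changes of 0.57 ± 0.27 and 0.58 ± 0.26 (limma adjusted p = 0.123 and 0.108). Of 37 autophagy and lysosome genes, 27 were called higher and 0 lower as deposited, and 6 higher and 3 lower after rescaling. Lamp2, a lysosomal membrane protein, averaged 41.96 ± 14.9 TPM in CAC muscles and 17.1 ± 1.26 TPM in NCAC muscles. It changed by 1.18 as deposited and 0.70 after rescaling. The lysosomal protease gene Ctsl lay between 106 and 1247 TPM in the 7 CAC libraries (median 169), against 70.5, 78.6, 72.8, 83.1 and 94.7 TPM in the 5 NCAC libraries, called as deposited only, at 1.81 ± 0.57 as deposited (limma adjusted p = 0.0134) and 1.32 ± 0.53 after rescaling (adjusted p = 0.0719). Ubb, a polyubiquitin gene, was between 666 and 3801 TPM in the 7 CAC libraries (median 1630.3), against 875, 804, 695, 619 and 581 TPM in the 5 NCAC libraries, and its changes of 1.29 ± 0.37 as deposited (limma adjusted p = 0.00873) and 0.80 ± 0.34 after rescaling (adjusted p = 0.0903) likewise passed as deposited only. Without CAC replicate 3, Psma7, Psmd4, Ctsl and Ubb passed after rescaling as well (limma adjusted p = 0.0438, 0.0378, 0.0314 and 0.0123). When mitochondrially encoded genes were removed before TPM was scaled, 4 of 31 proteasome subunits, 17 of 37 autophagy and lysosome genes, 4 of 28 ubiquitin genes and 6 of 19 brakes on mTORC1 and translation were called higher.

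Cytosolic ribosomal proteins were higher under both scalings. Of 79 such genes, 77 were called higher and 0 lower as deposited, and 67 higher and 0 lower after rescaling. On this list the median change was 0.93 as deposited and 0.44 after rescaling, and the groups did not overlap for 76 of them as deposited, against 40.3% of all genes. Many of these genes have processed pseudogenes, and how reads were shared with them is uncertain. Rpl3, a core protein of the large subunit, lay between 42.7 and 71.996 TPM in the 7 CAC libraries (median 56.2), against 15.5, 17.1, 19.3, 17.6 and 17.8 TPM in the 5 NCAC libraries. The changes were 1.595 ± 0.14 as deposited (limma adjusted p = 1.3e-05) and 1.12 ± 0.11 after rescaling (adjusted p = 8.38e-05). Rps27, of the small subunit, averaged 514 ± 216 TPM in CAC muscles and 179 ± 24.7 TPM in NCAC muscles. Myc, which activates ribosome production, averaged 10.1 ± 4.07 TPM in CAC muscles and 1.38 ± 0.592 TPM in NCAC muscles. It changed by 2.18 ± 0.28 as deposited (limma adjusted p = 6.71e-05) and 1.78 ± 0.25 after rescaling (adjusted p = 0.000456). Of 35 genes of ribosome assembly 32 were called higher and 0 lower as deposited, and 3 higher and 1 lower after rescaling, with 7 higher after rescaling without CAC replicate 3 and 5 without CAC replicate 5. Without mitochondrially encoded genes 16 of the 35 were called higher. Of 77 mitochondrial ribosomal proteins, 16 were called higher and 3 lower as deposited, and 0 higher and 49 lower after rescaling, and the count lower as deposited was 10 without CAC replicate 3, 1 without CAC replicate 7 or NCAC replicate 1, and 0 without NCAC replicate 2 or 5.

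**Figure D3:**
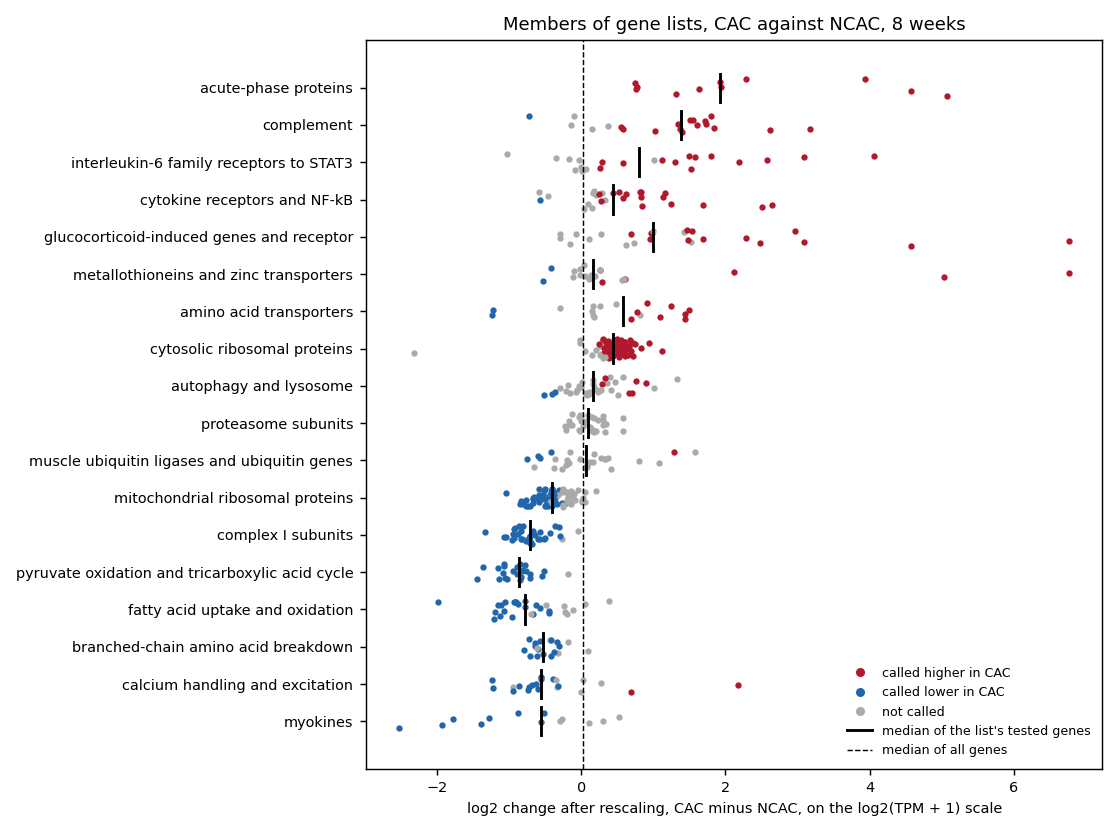
Rescaled log2 change of each tested member of 18 gene lists (x axis, CAC minus NCAC); each point is a gene, red and blue mark genes called higher and lower after rescaling, the black bar is the list's median and the dashed line the median of all genes, 0.027. Acute-phase, complement and cytokine lists sit to the right, proteasome subunits and ubiquitin ligases around the dashed line, and mitochondrial lists to the left.

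Among transcripts of oxidative metabolism, calls were mostly lower under both scalings, with more of them after rescaling. Of 36 nuclear-encoded complex I subunits, 2 were called higher and 14 lower as deposited, and 0 higher and 34 lower after rescaling, and of 40 subunits of complexes II to V, 1 was called higher and 21 lower as deposited, and 0 higher and 38 lower after rescaling. Without NCAC replicate 2 the deposited count of lower complex I subunits was 9. Of the 13 mitochondrially encoded proteins, 12 were called lower as deposited and all 13 after rescaling. In pyruvate oxidation and the tricarboxylic acid cycle, 0 were called higher and 19 lower as deposited, and 0 higher and 23 lower after rescaling, of 24. As deposited, the median of all genes was 0.44, so a gene called lower there also lay below that median. Without mitochondrially encoded genes, 27 complex I subunits, 35 subunits of complexes II to V and 28 mitochondrial ribosomal proteins were called lower. Ndufs1, an iron-sulfur subunit of complex I, lay between 96.5 and 179 TPM in the 7 CAC libraries (median 134), against 241, 249, 230.3, 234 and 252 TPM in the 5 NCAC libraries. All 7 CAC libraries were below all 5 NCAC libraries, and the Con mean was 239 ± 11.3 TPM in mock-injected mice. Its changes were -0.85 ± 0.14 as deposited (limma adjusted p = 0.000276) and -1.33 ± 0.17 after rescaling (adjusted p = 0.000253). Sdhb of complex II averaged 294 ± 48.1 TPM in CAC muscles and 469.6 ± 50.9 TPM in NCAC muscles. Uqcrc1 of complex III averaged 255 ± 62.7 TPM in CAC muscles and 406 ± 16.9 TPM in NCAC muscles. Cox7a1, the muscle form of a complex IV subunit, averaged 595 ± 119.6 TPM in CAC muscles and 1095 ± 154 TPM in NCAC muscles, and mt-Co1, its mitochondrially encoded core, averaged 64574 ± 3512 TPM in CAC muscles and 88788 ± 5639.9 TPM in NCAC muscles. Mdh1, the cytosolic malate dehydrogenase of the malate shuttle, lay between 213 and 399 TPM in the 7 CAC libraries (median 301), against 568, 675, 661, 508 and 592 TPM in the 5 NCAC libraries. The groups did not overlap, and the changes were -0.95 ± 0.16 as deposited (limma adjusted p = 0.000311) and -1.44 ± 0.18 after rescaling (adjusted p = 0.000259). Dlat, the acetyl transfer subunit of pyruvate dehydrogenase, averaged 64.4 ± 19.3 TPM in CAC muscles and 115 ± 8.66 TPM in NCAC muscles.

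Genes of fatty acid handling were more often called lower than higher. Of 28 genes of fatty acid uptake and oxidation, 2 were called higher and 14 lower as deposited, and 0 higher and 20 lower after rescaling. Fabp3, the heart and muscle fatty acid binding protein, lay between 305 and 609.6 TPM in the 7 CAC libraries (median 407), against 1462, 1999, 963, 707 and 1149 TPM in the 5 NCAC libraries. The groups did not overlap, and the changes were -1.50 ± 0.24 as deposited (limma adjusted p = 0.000266) and -1.99 ± 0.26 after rescaling (adjusted p = 0.000302). Ckmt2, the creatine kinase of muscle mitochondria, averaged 965 ± 287 TPM in CAC muscles and 2626 ± 545 TPM in NCAC muscles. It changed by -1.49 ± 0.24 as deposited (limma adjusted p = 0.000283) and -1.98 ± 0.28 after rescaling (adjusted p = 0.000446). On its list of creatine and adenylate buffering, 1 was called higher and 3 lower as deposited, and 1 higher and 6 lower after rescaling, of 13 tested, and the count of 1 as deposited was 3 without CAC replicate 1. Mb, myoglobin, which stores oxygen in oxidative fibres, averaged 3021 ± 1047 TPM in CAC muscles and 7652 ± 1556 TPM in NCAC muscles. Perm1 and Esrra, which switch on mitochondrial genes in muscle, changed by -1.24 as deposited and -1.72 after rescaling and by -0.57 as deposited and -1.05 after rescaling. Ppargc1a (PGC-1alpha), their best-known partner, was not called, at 17.96 ± 7.97 TPM in CAC muscles and 15.7 ± 4.3998 TPM in NCAC muscles. Its changes were 0.12 ± 0.27 as deposited (limma adjusted p = 0.696) and -0.34 ± 0.24 after rescaling (adjusted p = 0.29). Of 28 glycolytic and glycogen genes, 7 were called higher and 3 lower as deposited, and 2 higher and 13 lower after rescaling, and the rescaled count of lower genes was 6 without NCAC replicate 4 and 8 without NCAC replicate 5 or CAC replicate 2. Ldhb, the lactate dehydrogenase subunit of oxidative muscle, averaged 105 ± 21.9 TPM in CAC muscles and 223 ± 56.4 TPM in NCAC muscles. The change was -1.07 ± 0.18 as deposited (limma adjusted p = 0.000343) and -1.55 ± 0.17 after rescaling (adjusted p = 0.000167). Adk, which recycles adenosine, averaged 57.4 ± 12.6 TPM in CAC muscles and 100.3 ± 16.7 TPM in NCAC muscles.

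Contractile genes were called in both directions. Among the 12 largest decreases, Actc1, cardiac alpha-actin, which adult limb muscle makes in small amounts, lay between 1.35 and 20.98 TPM in the 7 CAC libraries (median 6.57), against 161, 30.9, 63.03, 62.5 and 212 TPM in the 5 NCAC libraries. The highest CAC value was below the lowest NCAC value, and the Con mean was 134 ± 145 TPM in mock-injected mice. Its changes were -3.51 ± 0.57 as deposited (limma adjusted p = 0.000276) and -3.92 ± 0.56 after rescaling (adjusted p = 0.000455). Acta1, the skeletal alpha-actin and one of the most abundant transcripts, averaged 26384 ± 7210.4 TPM in CAC muscles and 32161 ± 3200.2 TPM in NCAC muscles. It was called after rescaling only, at -0.35 ± 0.22 as deposited (limma adjusted p = 0.174) and -0.84 ± 0.25 after rescaling (adjusted p = 0.0243), a call lost without NCAC replicate 1, 2 or 4. Myl3, a slow-fibre and ventricular myosin light chain, lay between 1.47 and 33.8 TPM in the 7 CAC libraries (median 11.6), against 53.7, 26.8, 27.1, 44.99 and 57.9 TPM in the 5 NCAC libraries, where the highest CAC library was above the lowest NCAC libraries, and changed by -1.88 ± 0.54 as deposited (limma adjusted p = 0.00872) and -2.31 ± 0.55 after rescaling (adjusted p = 0.00777). Myh4, the fastest adult myosin, averaged 10342 ± 2111 TPM in CAC muscles and 8661 ± 2181 TPM in NCAC muscles. It was not called, at 0.27 ± 0.19 as deposited (limma adjusted p = 0.205) and -0.22 ± 0.19 after rescaling (adjusted p = 0.398). Des, desmin, which links neighbouring sarcomeres, rose, with 2519.6 ± 673 TPM in CAC muscles and 996 ± 179 TPM in NCAC muscles. Its changes were 1.31 ± 0.20 as deposited (limma adjusted p = 0.000186) and 0.81 ± 0.20 after rescaling (adjusted p = 0.00846). Of 14 fast sarcomere genes 4 were called higher and 1 lower as deposited, and 0 higher and 7 lower after rescaling, and the count lower as deposited was 5 without CAC replicate 3 and 4 without CAC replicate 5. Of 13 slow sarcomere genes 2 were called higher and 1 lower as deposited, and 1 higher and 2 lower after rescaling.

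Calcium handling changed in both directions. Sln, sarcolipin, which uncouples the calcium pump SERCA, lay between 9.24 and 81.4 TPM in the 7 CAC libraries (median 27.1), against 3.06, 4.198, 5.204, 1.95 and 4.67 TPM in the 5 NCAC libraries. The groups did not overlap, and the changes were 2.62 ± 0.40 as deposited (limma adjusted p = 0.000195) and 2.17 ± 0.40 after rescaling (adjusted p = 0.00205). Casq1, calsequestrin, the main calcium store of fast fibres, lay between 113 and 2381 TPM in the 7 CAC libraries (median 1119), against 2197, 1752, 1458, 2646 and 1998 TPM in the 5 NCAC libraries. CAC replicates 1 and 6 held 113 and 138 TPM, while replicates 3 and 5 held 2381 and 1565 TPM, inside the NCAC range. The changes were -1.58 ± 0.70 as deposited (limma adjusted p = 0.0585) and -2.07 ± 0.74 after rescaling (adjusted p = 0.0478) and fell on either side of the threshold, and without CAC replicate 3 they were -1.89 as deposited and -2.40 after rescaling (limma adjusted p = 0.0224 and 0.019). The rescaled call was lost without any 1 of the 5 NCAC libraries or of CAC replicates 1, 2, 4, 6 and 7. Without CAC replicates 1 and 6, chosen after seeing the data, they were -0.63 as deposited and -1.06 after rescaling (limma adjusted p = 0.0635 and 0.0182). Of 22 genes on the list, 4 were called higher and 2 lower as deposited, and 2 higher and 13 lower after rescaling; the count of 13 was 6, 7, 8 and 8 without NCAC replicates 4, 1, 2 and 5. Trim72 (MG53), which seals tears in the muscle membrane, averaged 274 ± 36.4 TPM in CAC muscles and 115 ± 10.99 TPM in NCAC muscles. It changed by 1.25 ± 0.11 as deposited (limma adjusted p = 1.18e-05) and 0.76 ± 0.13 after rescaling (adjusted p = 0.00152). Of 23 membrane repair and dystrophin complex genes, 14 were called higher and 0 lower as deposited, and 4 higher and 1 lower after rescaling.

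Among the 12 largest decreases was Ighm, the heavy chain of immunoglobulin M. It lay between 1.04 and 17.8 TPM in the 7 CAC libraries (median 4.101), against 47.8, 35.5, 20.5, 130.3 and 214 TPM in the 5 NCAC libraries. Every CAC library was below every NCAC library, and the Con mean was 47.4 ± 19.4 TPM in mock-injected mice. Its changes were -3.54 ± 0.63 as deposited (limma adjusted p = 0.000518) and -3.93 ± 0.61 after rescaling (adjusted p = 0.00076); immunoglobulin genes are similar to each other and their read assignment is uncertain. Of the B and plasma cell markers 2 passed the filter, 1 of them Ighm itself. The summed level of the 8 markers on that list was 3.11 to 20.1 TPM in CAC libraries and 24.8 to 218 TPM in NCAC libraries. Ighm is part of this sum, with 17.8 of the 20.1 TPM in CAC replicate 3, so the sum is not separate from the fall of Ighm. The part of these cells in that fall was not tested. Nmrk2, a muscle kinase that makes NAD from nicotinamide riboside, lay between 0.704 and 256 TPM in the 7 CAC libraries (median 33.3), against 141, 280.4, 93.8, 135 and 134 TPM in the 5 NCAC libraries. The spread within CAC was extreme, from 0.704 and 0.743 TPM in replicates 1 and 6 to 256 TPM in replicate 3, which lay inside the NCAC range. Its changes were -2.78 ± 1.09 as deposited (limma adjusted p = 0.0382) and -3.17 ± 1.08 after rescaling (adjusted p = 0.041); the deposited call was lost without any 1 of the 5 NCAC libraries or of CAC replicates 1 and 6, and the rescaled call also without CAC replicate 2 or 5. Without CAC replicate 3 the changes were -3.37 as deposited and -3.76 after rescaling (limma adjusted p = 0.0082 and 0.00918). Tfrc, the transferrin receptor that brings iron into cells, lay between 3.31 and 100.2 TPM in the 7 CAC libraries (median 13.1), against 43.3, 108, 97.5, 88.99 and 35.8 TPM in the 5 NCAC libraries, and CAC replicate 3 alone was above the lowest NCAC library. Its changes were -2.18 ± 0.65 as deposited (limma adjusted p = 0.0108) and -2.62 ± 0.67 after rescaling (adjusted p = 0.011).

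**Figure D4:**
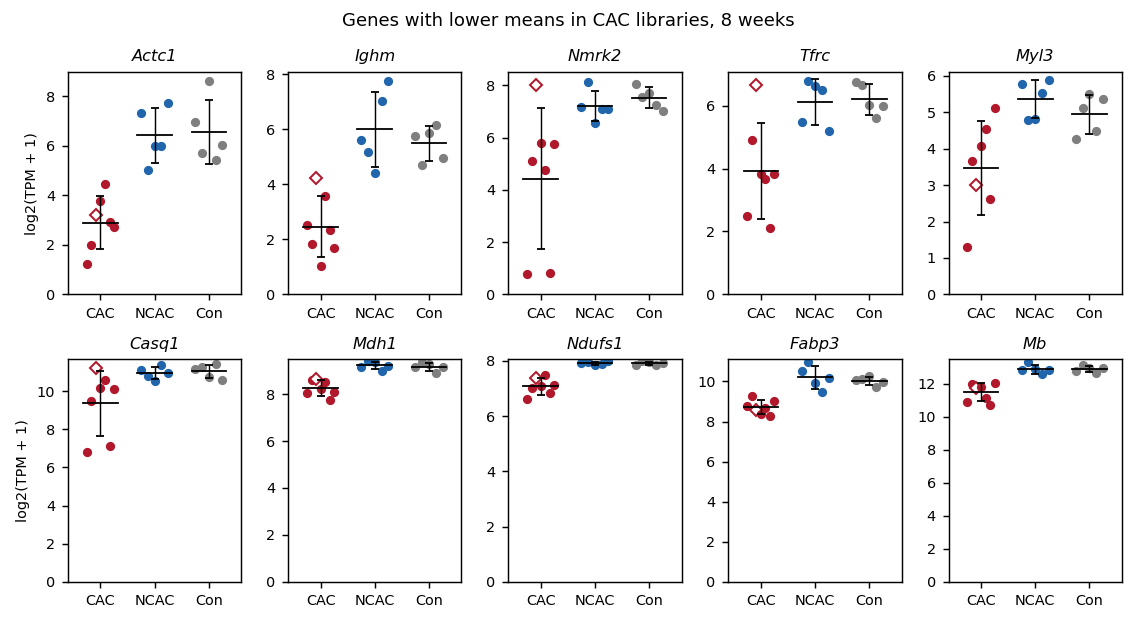
Values of log2(TPM + 1) (y axis) in each 8-week library of CAC (red), NCAC (blue) and Con (grey) mice for 10 genes with lower means in CAC; lines and bars are the mean and SD, and the open diamond is CAC replicate 3. Actc1, Ighm, Mdh1, Ndufs1, Fabp3 and Mb were lower than every NCAC library in all 7 CAC libraries, whereas CAC replicate 3 lay among the NCAC values for Nmrk2, Tfrc and Casq1.

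Iron genes changed in both directions. Ftl1, ferritin light chain, averaged 484 ± 138 TPM in CAC muscles and 207 ± 34.9 TPM in NCAC muscles. It changed by 1.19 ± 0.19 as deposited (limma adjusted p = 0.000238) and 0.70 ± 0.15 after rescaling (adjusted p = 0.0048), while Tfrc fell. Near-identical ferritin pseudogenes make the assignment of Ftl1 reads uncertain. Hmox1, heme oxygenase, which frees iron from heme, lay between 4.56 and 219 TPM in the 7 CAC libraries (median 8.47), against 2.87, 2.21, 3.18, 2.83 and 3.52 TPM in the 5 NCAC libraries. All CAC libraries were above all NCAC libraries, but CAC replicates 6 and 1, at 219 and 76.6 TPM, were far from the other CAC libraries, and the changes of 2.20 ± 0.81 as deposited (limma adjusted p = 0.0292) and 1.77 ± 0.77 after rescaling (adjusted p = 0.0946) passed as deposited only, a call lost without CAC replicate 1 or NCAC replicate 1, 2 or 4. Over the 17 iron genes, 9 were called higher and 1 lower as deposited, and 3 higher and 5 lower after rescaling. The rescaled counts were 5 higher without CAC replicate 3 and 2 or 3 lower without CAC replicate 2 or 6 or NCAC replicate 1, 2, 3 or 4. The other large decreases were in genes of varied roles. Cyfip2, a regulator of actin branching, averaged 1.65 ± 1.15 TPM in CAC muscles and 11.95 ± 8.46 TPM in NCAC muscles. Lrtm1, a leucine-rich membrane protein, averaged 9.28 ± 8.27 TPM in CAC muscles and 34.1 ± 10.6 TPM in NCAC muscles. Nrep, a neuronal regeneration protein, averaged 22.8 ± 24.7 TPM in CAC muscles and 69.8 ± 29.1 TPM in NCAC muscles. Dupd1, a dual-specificity phosphatase of muscle, averaged 9.07 ± 7.76 TPM in CAC muscles and 32.05 ± 8.33 TPM in NCAC muscles. Dkk3, a secreted relative of Wnt inhibitors, averaged 3.32 ± 2.69 TPM in CAC muscles and 11.9 ± 4.29 TPM in NCAC muscles. Irf5, an interferon regulatory factor, averaged 7.11 ± 6.35 TPM in CAC muscles and 19.2 ± 5.18 TPM in NCAC muscles. Cyp4f39, a cytochrome P450 of fatty acid hydroxylation, averaged 3.64 ± 3.95 TPM in CAC muscles and 13.4 ± 5.45 TPM in NCAC muscles. Adjusted p-values from limma for these 7 ranged from 0.000872 to 0.0143 as deposited. Nrep in CAC replicates 3 and 5, at 72.9 and 34.2 TPM, lay inside the NCAC range. With a replicate block its calls were lost (limma adjusted p = 0.0878 as deposited and 0.11 after rescaling). The rescaled call of Cyp4f39 was lost there too (limma adjusted p = 0.0531).

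Secreted muscle factors were more often called lower than higher. Of 13 tested myokines, 3 were called higher and 6 lower as deposited, and 0 higher and 8 lower after rescaling. The median change was -0.32 as deposited and -0.56 after rescaling. Fndc5, the precursor of irisin, lay between 18.5 and 40.04 TPM in the 7 CAC libraries (median 29.1), against 76.1, 67.3, 63.96, 67.99 and 88.5 TPM in the 5 NCAC libraries. The groups did not overlap, and the changes were -1.31 ± 0.16 as deposited (limma adjusted p = 5.57e-05) and -1.78 ± 0.18 after rescaling (adjusted p = 9.7e-05). Il15, a cytokine that muscle secretes, averaged 4.92 ± 1.18 TPM in CAC muscles and 9.79 ± 2.18 TPM in NCAC muscles. Ostn, musclin, averaged 2.25 ± 2.56 TPM in CAC muscles and 7.63 ± 2.401 TPM in NCAC muscles. Mstn, myostatin, the inhibitor of muscle growth, averaged 41.4 ± 15.7 TPM in CAC muscles and 20.3 ± 8.77 TPM in NCAC muscles. It was called higher as deposited only, at 1.001 ± 0.29 as deposited (limma adjusted p = 0.00932) and 0.53 ± 0.28 after rescaling (adjusted p = 0.158). Fst, follistatin, which binds myostatin, averaged 2.42 ± 0.555 TPM in CAC muscles and 1.24 ± 0.458 TPM in NCAC muscles. The change was 0.62 as deposited and 0.30 after rescaling. Fst too was called as deposited only, and after rescaling it was called without CAC replicate 5 or NCAC replicate 4. Amino acid transporters were mostly higher. Of 18 tested, 14 were called higher and 2 lower as deposited, and 8 higher and 2 lower after rescaling. Their median change was 1.02 as deposited and 0.58 after rescaling. The rescaled count of 8 was 3 without any 1 of the 5 NCAC libraries, 4 without CAC replicate 2 and 5 without CAC replicate 1 or 6. Slc3a2, the common heavy chain of several of them, averaged 42.2 ± 8.26 TPM in CAC muscles and 12.1 ± 1.996 TPM in NCAC muscles. Its changes were 1.72 ± 0.15 as deposited (limma adjusted p = 1.14e-05) and 1.24 ± 0.12 after rescaling (adjusted p = 8.09e-05). Sat1, the enzyme that starts polyamine breakdown, averaged 43.1 ± 24.2 TPM in CAC muscles and 10.4 ± 1.36 TPM in NCAC muscles, and its rescaled call was lost without NCAC replicate 2 or 4. Branched-chain amino acid breakdown was lower after rescaling in 14 of 19 genes and in 0 as deposited.

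Markers of several other cell types were called higher in CAC muscles, and those of others were not. Of 5 erythroid markers 0 were called under either scaling, and of 5 tenocyte markers 1 was called higher and 2 lower under each scaling. Both tested B and plasma cell markers, 1 of them Ighm, were called lower. Without CAC replicate 3, 1 of the 2 B and plasma cell markers was called lower as deposited and 2 after rescaling, and 1 erythroid marker was called lower after rescaling. Fibro-adipogenic progenitor markers included Ly6a (Sca-1), with 111 ± 26.5 TPM in CAC muscles and 26.9 ± 4.83 TPM in NCAC muscles, and of 7 tested 4 were called higher and 0 lower as deposited, and 3 higher and 0 lower after rescaling. For adipocytes, 5 were called higher and 0 lower as deposited, and 4 higher and 0 lower after rescaling, of 6, led by Cfd (adipsin) at 129 ± 48.4 TPM in CAC muscles and 26.8 ± 10.5 TPM in NCAC muscles. Cidec, a lipid droplet protein, averaged 11.03 ± 4.87 TPM in CAC muscles and 2.14 ± 0.823 TPM in NCAC muscles. The adipocyte markers summed to 676 to 1010 TPM in CAC libraries and 328 to 514 TPM in NCAC libraries. Cfd is also a complement gene. Of 8 pericyte and smooth muscle markers 6 were called higher and 0 lower as deposited, and 4 higher and 0 lower after rescaling, with Tagln at 98.5 ± 17.9 TPM in CAC muscles and 26.4 ± 4.76 TPM in NCAC muscles. Of 10 endothelial markers 8 were called higher and 1 lower as deposited, and 3 higher and 1 lower after rescaling, with 5 higher after rescaling without CAC replicate 1. Pecam1 (CD31) averaged 74.8 ± 9.98 TPM in CAC muscles and 30.7 ± 3.63 TPM in NCAC muscles, but Kdr, the main receptor for VEGF, fell, with 9.87 ± 3.05 TPM in CAC muscles and 14.9 ± 3.65 TPM in NCAC muscles. Its changes were -0.56 ± 0.20 as deposited (limma adjusted p = 0.0245) and -1.003 ± 0.22 after rescaling (adjusted p = 0.00488); the deposited call of Kdr was lost without NCAC replicate 2 or 5. Cd163, a receptor of tissue macrophages, averaged 5.15 ± 2.47 TPM in CAC muscles and 0.6598 ± 0.357 TPM in NCAC muscles. Neutrophil markers summed to 12.9 to 56.7 TPM in CAC libraries and 3.39 to 10.5 TPM in NCAC libraries. Only 3 of these 10 markers passed the filter. All 3 were called higher as deposited and 2 after rescaling, or 1 after rescaling without CAC replicate 3. No T cell or natural killer cell marker reached the filter, with T cell markers summing to at most 0.540 TPM in CAC and 0.379 TPM in NCAC libraries. Melanocyte markers summed to 6.08 to 14.5 TPM in CAC libraries and 5.40 to 5.89 TPM in NCAC libraries. Of 2 tested, 1 was called higher and 0 lower as deposited, and 0 higher and 0 lower after rescaling.

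Within the CAC group, 1 library lay closer to NCAC than the others, and its distance depended on the gene. Of the 1848 genes called higher under both scalings, CAC replicate 3 lay above every NCAC library for 94% as deposited, against 99.5 to 99.8% in the other 6 CAC libraries. It was the lowest of the 7 for 57.3% of these genes. Of the 404 genes called lower, it lay below every NCAC library for 49.3%, against 70.5 to 95.8% in the others. CAC replicates 1 and 6 stood at the other end. Replicate 6 was the highest of the 7 for 36.5% of the higher genes and replicate 1 for 30%, and replicate 1 was the lowest for 55.7% of the lower genes. These counts describe libraries that also entered the test, and they use values as deposited, where the median change over all genes was 0.44. That shift raises the shares for higher genes and lowers those for lower genes, so the 2 cannot be set against each other. Over all tested genes the groups did not overlap in 40.3% (higher) and 1.1% (lower) as deposited. Without replicate 3, of 11282 genes tested, 7208 were called higher and 543 lower as deposited, and 2206 higher and 2171 lower after rescaling. Without replicates 1 and 6 the rescaled counts were 1880 and 1775. Socs3, Stat3, Osmr, Csf2rb, C3, Actc1, Ighm, Ndufs1 and Fabp3 were beyond the NCAC range in CAC replicate 3 as in the other 6. Mt2, Mt1, Fkbp5, Eif4ebp1 and Nmrk2 lay inside it in that library alone among the 7, Casq1 in that library and in replicate 5, and Trim63, Fbxo32 and Il6ra lay below the lowest NCAC library there.

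**Figure D5:**
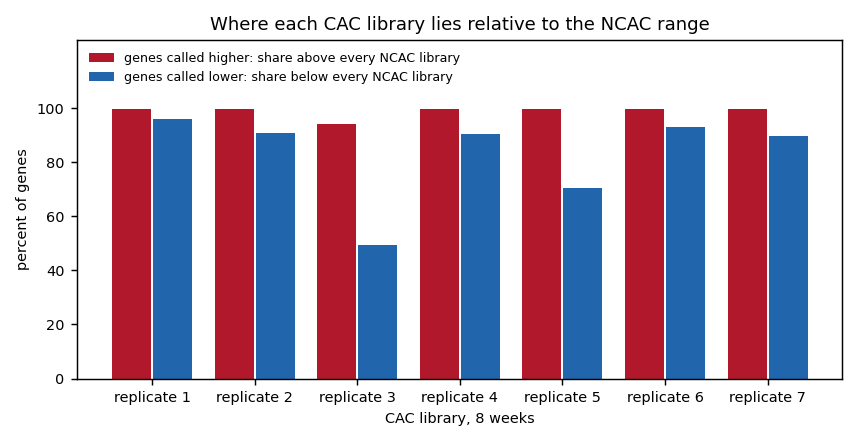
Percent of genes (y axis) for which each CAC library (x axis) lay above every NCAC library among the 1848 genes called higher under both scalings (red) and below every NCAC library among the 404 called lower (blue), as deposited. The red bars are between 94 and 99.8% in all 7 libraries, and the blue bar of replicate 3 is the lowest at 49.3%. As deposited the median change over all genes was 0.44, so red and blue bars cannot be set against each other.

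No gene was called between the non-cachectic tumour and the mock injection. Comparing NCAC with Con muscles at 8 weeks, limma called 0 of 10801 genes higher or lower as deposited and 0 after rescaling, and 257 (2.38%) and 430 (3.98%) had an unadjusted p under 0.05. The smallest adjusted p was 1 as deposited and 0.838 after rescaling. Pdk4 was among the 6 genes with the smallest p, at 541 ± 199 TPM in NCAC muscles and 285 ± 50.1 TPM in Con muscles (change 0.87 ± 0.21, limma adjusted p = 1). The contrast between the tumours was also compared with that at 6 weeks. The CAC against NCAC change at 8 weeks minus that at 6 weeks was called for 0 of 11258 genes, with 269 (2.39%) at an unadjusted p under 0.05, and after rescaling for 0, with 555 (4.93%). A p that misses the threshold does not show that the changes were equal. As deposited, the change of Socs3 was 4.08 at 6 weeks and 4.50 at 8 weeks, that of Mt2 6.96 at 6 weeks and 7.24 at 8 weeks, that of Actc1 -3.38 at 6 weeks and -3.51 at 8 weeks and that of Trim63 2.38 at 6 weeks and 2.07 at 8 weeks. For Ndufs1 it was -0.58 at 6 weeks and -0.85 at 8 weeks, with a difference of -0.27 ± 0.19. Nos1, the neuronal nitric oxide synthase held at the muscle membrane, had 1 of the smallest p-values, with changes of 0.87 at 6 weeks and -0.19 at 8 weeks and a difference of -1.06 ± 0.29 (unadjusted p = 0.00132, limma adjusted p = 1). After rescaling, the difference of Nos1 was -1.06 ± 0.21 (limma adjusted p = 0.522), and its change at 8 weeks alone was called lower, at -0.66 ± 0.14 (limma adjusted p = 0.00349).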

How the data were processed

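Poly(A) RNA libraries (TruSeq stranded mRNA, per the labels' protocols) were quantified by the authors and deposited as 1 table of TPM per gene and library. The submitters' processing notes name mm10; the aligner, the counter, the annotation and the use of strand in counting are each not given in the sources used here. Reads of near-identical genes may have been divided unevenly. Because TPM keeps no depth, no counting error or detection limit could be given.

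From the 62 libraries, groups were taken from the labels. Genes averaging 1 TPM or more were tested on log2(TPM + 1) with limma 3.58.1 in R 4.3.3, with Benjamini-Hochberg adjustment over all tested genes and a threshold of 0.05, in a fit of the 12 CAC and NCAC libraries. The same fit was made after dividing each library by its median-of-ratios factor. Each p-value weighs a difference of group means against the spread between libraries within groups. The fit takes that spread as common to its groups, although CAC libraries varied more than NCAC libraries for 79.3% of genes. NCAC against Con, and the contrast at 8 minus 6 weeks, were fitted the same way on their own libraries. The script was tested on simulated data. Python 3.11.15 and matplotlib 3.10.9 drew the figures.

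The members and the 58 gene lists (42 pathways, 16 cell types) were chosen with earlier results of these data known. Genes are named as the 12 largest increases and decreases called under both scalings with a mean of 5 TPM or more in either group and no predicted symbol, as list members with the smallest adjusted p (up to 4 a list), from a fixed panel of textbook genes, and among the 6 smallest p-values of the other contrasts. The panel also held Myh2 and Myh7, whose values are not reported here. Ldhb, Adk, Slc3a2, Il1r1, Ly6a and Kdr were added after their values were seen. Gene coordinates are from GENCODE M21 (GRCm38) and promoter sequences from RefSeq (GRCm38.p6). Replicate numbers shared by CAC and NCAC libraries come from the labels, which do not say that they mark a shared animal, batch or day. The alternatives were another pseudocount, no filter, removal of mitochondrially encoded genes before scaling TPM, a fit of all 62 libraries, a weight per group, a replicate block, robust empirical Bayes and leaving out each library.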

Additional observations from a re-analysis of the deposited data

Results flagged for a closer look

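Of the 204 groups of libraries examined, 1 for each named gene in CAC and in NCAC, 18 held a library far from the others of its group by Dixon's criterion, which chance meets in about 1 in 20 groups. CAC replicate 3 was that library in 12 of them and was the lowest each time. It held 32.3 TPM of Mt2 (others 1925 to 4596) and 64.6 TPM of Mt1 (others 1853 to 5057). Among acute-phase and complement genes it held 0.999 TPM of Lcn2 (others 30.7 to 130.3), 3.398 TPM of Hp (others 43.5 to 92.97), 8.11 TPM of C4b (others 22.1 to 35.6), 25.2 TPM of C3 (others 66.4 to 106) and 5.01 TPM of Lbp (others 18.3 to 32.6). It also held 4.99 TPM of Il4ra (others 11.002 to 17.7), 8.46 TPM of Fkbp5 (others 76.95 to 179), 17.1 TPM of Nfil3 (others 70.6 to 117), 20.6 TPM of Igfbp4 (others 37.2 to 51.4) and 5.14 TPM of Il1r1 (others 6.94 to 7.905). In the same library Hba-a1 was at 3252 TPM and erythroid markers summed to 14700 TPM, and the part of blood in these values was not tested.

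NCAC replicate 3 was the highest of its group for 3 genes, with 45.7 TPM of Mt2 (others 3.14 to 6.06), 90.2 TPM of Mt1 (others 20.9 to 27.2) and 60.004 TPM of Cdkn1a (others 6.57 to 10.6). Fkbp5 and Ddit4 were also highest among the NCAC libraries in that library. NCAC replicate 1 was lowest for a ribosomal protein, with 138 TPM of Rps27 (others 184 to 204). CAC replicate 6 held 57048 TPM of mt-Co1 (others 63532 to 67294), and CAC replicate 1 held 11706 TPM of Acta1 (others 25011 to 33361).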

How the results depend on the processing

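The share of higher and lower calls depended on the scaling, and the counts on the fit. Without mitochondrially encoded genes, 4553 genes were called higher and 857 lower as deposited, with a median change over all genes of 0.25. In the fit of all 62 libraries, 2955 genes were called higher after rescaling. Leaving out 1 library gave 6492 to 7335 higher and 291 to 543 lower as deposited, and 1256 to 2206 higher and 1263 to 2171 lower after rescaling. All 4 counts were lowest without NCAC replicate 2, and the last 3 were highest without CAC replicate 3. The difference in mitochondrial share ran from -10.6 to -9.24 percentage points. NCAC against Con gave 1 lower gene without the filter and 1 higher in the fit of all 62 libraries, and both it and the contrast of 8 minus 6 weeks gave 0 whenever 1 library was left out.

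For replicates with the same number, deviations from the group means had correlations of -0.161, -0.0965, -0.326, 0.00689 and 0.163 for numbers 1 to 5. These were computed after rescaling, which takes out shifts of a whole library. Whether a shared number marks a shared batch or day was not tested. With the replicate block, 6165 genes were called higher and 256 lower as deposited, and 776 higher and 734 lower after rescaling. The block took away the deposited calls of Cdkn1a, Kdr, Nmrk2, Nrep and Trim63. It took away the rescaled calls of Il6st, Slc30a1, Fkbp5, Glul, Foxo1, Eif4ebp1, Eif4ebp2, Fbxo31, Lamp2, Des, Cyp4f39 and Nrep. Those of Il6ra, Slc39a14, Igf1r, Sat1, Acta1, Casq1 and Nmrk2, also lost without single libraries, were lost too.

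Of the named genes called as deposited, 88 of 95 were called under every alternative that left out at most 1 library, and after rescaling 69 of 89. Many were named for large changes or small adjusted p in these same data, so these counts do not describe tested genes in general. Among uncalled genes, 2 changed sign. Pdk4 as deposited was between -0.0128 (without CAC replicate 1) and 0.803 with 1 library left out and -0.47 without CAC replicates 1 and 6. After rescaling it was between -0.482 and 0.308, and above 0 without CAC replicate 3, 4 or 5 or NCAC replicate 3. Ppargc1a as deposited was -0.11 without mitochondrially encoded genes, -0.059 with the replicate block, -0.0124 without CAC replicate 1 and -0.18 without CAC replicates 1 and 6. The cause was not tested. TPM gives no depth, so it is unknown which low values are limited by counting.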

Other observations

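Other gene groups are given as counts of tested genes called, against 63.9% higher and 3.57% lower among all tested genes as deposited and 16.3% higher and 15.9% lower after rescaling. Where leaving out 1 library moved a count by over 1.5 times, with 3 or more genes called before or after, the new count follows. Genes of the major histocompatibility complex and antigen presentation numbered 17 tested, of which 11 were called higher and 0 lower as deposited, and 6 higher and 0 lower after rescaling. The number called higher after rescaling was 3 without NCAC replicate 1, 3 or 4. Antioxidant enzymes numbered 28 tested, of which 17 were called higher and 3 lower as deposited, and 4 higher and 8 lower after rescaling. Leaving out CAC replicate 1, 2, 4 or 7 or any NCAC replicate gave 1 to 2 called higher after rescaling. Myostatin, activin and BMP pathway genes numbered 26 tested, of which 15 were called higher and 0 lower as deposited, and 4 higher and 5 lower after rescaling. Without CAC replicate 1, 2 or 6 or any NCAC replicate, the number called lower after rescaling was 1 to 3. Circadian clock genes numbered 18 tested, of which 10 were called higher and 1 lower as deposited, and 3 higher and 3 lower after rescaling. The number called higher after rescaling was 1 without CAC replicate 2, 4 or 6 or NCAC replicate 2. Leaving out CAC replicate 2, 3 or 4 or NCAC replicate 1, 2, 4 or 5 gave 1 to 5 called lower after rescaling. Genes of p53, Gadd45 and growth arrest numbered 24 tested, of which 14 were called higher and 1 lower as deposited, and 4 higher and 1 lower after rescaling. Without NCAC replicate 2 or 4, the number called higher after rescaling was 2. Collagens and matrix genes numbered 26 tested, of which 11 were called higher and 1 lower as deposited, and 5 higher and 7 lower after rescaling. The number called lower as deposited was 0 to 4 without CAC replicate 1, 3 or 5 or NCAC replicate 3, 4 or 5. Leaving out NCAC replicate 1, 3 or 5 gave 3 to 12 called lower after rescaling.

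Genes of the neuromuscular junction, many of which rise when a muscle loses its nerve, numbered 18 tested, of which 6 were called higher and 0 lower as deposited, and 1 higher and 4 lower after rescaling. Without CAC replicate 2 or 6 or any NCAC replicate, the number called lower after rescaling was 0 to 2. Satellite cell and myogenic factors numbered 15 tested, of which 7 were called higher and 1 lower as deposited, and 1 higher and 3 lower after rescaling. The number called lower after rescaling was 1 without NCAC replicate 1, 2 or 5. Genes of the integrated stress response numbered 19 tested, of which 8 were called higher and 0 lower as deposited, and 5 higher and 2 lower after rescaling. Leaving out NCAC replicate 4 gave 5 called higher as deposited. Without NCAC replicate 2 or 4, the number called higher after rescaling was 3. Genes of PGC-1 and mitochondrial biogenesis numbered 23 tested, of which 7 were called higher and 6 lower as deposited, and 3 higher and 12 lower after rescaling. The number called higher after rescaling was 1 without NCAC replicate 1, 4 or 5. Lipid droplet and lipolysis genes numbered 19 tested, of which 6 were called higher and 0 lower as deposited, and 2 higher and 5 lower after rescaling. Leaving out NCAC replicate 1, 2 or 5 gave 2 to 3 called lower after rescaling. Polyamine genes numbered 13 tested, of which 3 were called higher and 0 lower as deposited, and 1 higher and 4 lower after rescaling. Without CAC replicate 1, the number called higher as deposited was 5. Developmental and cardiac sarcomere genes numbered 11 tested, of which 0 were called higher and 1 lower as deposited, and 0 higher and 2 lower after rescaling. The number called lower after rescaling was 1 to 4 without CAC replicate 7 or NCAC replicate 1, 2 or 4. Summed levels of Schwann cell markers were 46.5 to 102 TPM in CAC libraries and 25.2 to 62.5 TPM in NCAC libraries. These markers numbered 6 tested, of which 4 were called higher and 0 lower as deposited, and 2 higher and 0 lower after rescaling. Tenocyte markers summed to 14.2 to 51.5 TPM in CAC libraries and 18.1 to 45.2 TPM in NCAC libraries. Keratinocyte markers summed to 1.83 to 4.18 TPM in CAC libraries and 1.87 to 2.95 TPM in NCAC libraries. The keratinocyte markers numbered 2 tested, of which 1 was called higher and 0 lower as deposited, and 0 higher and 0 lower after rescaling. Erythroid markers summed to 147 to 14700 TPM in CAC libraries and 596 to 1600 TPM in NCAC libraries, and the highest value was that of CAC replicate 3. Myofibre markers numbered 10 tested, of which 2 were called higher and 1 lower as deposited, and 1 higher and 5 lower after rescaling. Leaving out CAC replicate 3 or 5 gave 2 to 3 called lower as deposited. Without NCAC replicate 4, the number called lower after rescaling was 3.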
